A study of Homo sapiens with 2 samples.

Results

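Kinesins are the motor proteins that walk along, or take apart, microtubules with the energy of ATP. The family was followed here in lymphoblastoid cells, human B cells that Epstein-Barr virus has transformed so that they keep dividing in culture. The members were the probe sets annotated with exactly 1 gene symbol that begins with KIF or KIFC and a digit, a rule that uses no measured value, although the family and the classes below were picked with earlier results of these data known. This gave 64 of 29461 named probe sets, and 39 of 16692 genes: 37 motor genes with 60 probe sets, and 2 antisense RNA genes, KIF9-AS1 and KIF25-AS1, with 4. The samples form 1 group of 2, untreated cells of the line that the titles call GM06690 and the growth protocol GM06990, and 1 Affymetrix Human Genome U133 Plus 2.0 array was hybridised with total RNA from each. The labels do not say whether separate cultures were used, and the spread between the arrays may therefore be technical.

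In dividing cells, kinesins push spindle poles apart, bring chromosomes to the middle of the spindle, shorten microtubule ends and build the midzone at which the cell is cut. In resting and specialised cells other kinesins carry cargo outward along microtubules: vesicles and mitochondria through the cytoplasm and, in neurons, along axons and dendrites, and building material into cilia. Mitotic kinesins are made by dividing cells of every kind, whereas the axonal motors are best known from nerve cells. The motor genes were sorted by textbook role into 4 classes: mitotic, neuronal, general transport, and cilium and other. Of the 42 genes so listed, KIF4B, KIF7, KIF12, KIF26A and KIF27 had no probe set among those used and were not analysed here.

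Signals are given below as the log2 of the deposited RMA value, for replicate 1 and replicate 2 in that order. A gene is called above background where its brightest probe set exceeded, on both arrays, the 95th percentile of 81 genes restricted to tissues such as liver, muscle and eye; this level was 5.70 in replicate 1 and 5.69 in replicate 2. At this level 8691 of all 16692 genes were above background, and with the 75th or 99th percentile instead 10428 or 6719 were. Probe sets bind with different strength, so a signal says how far a gene's probes stood above background and does not rank genes by transcript number. B-cell markers were high, as the labelled cell type has them. MS4A1, which encodes a B-cell surface protein, gave 13.12 and 13.26. CD79A and CD79B, chains of the B-cell receptor complex, gave 11.32 and 11.27, and 9.62 and 9.55. All 9 measured B-cell markers were above background, though CD79B by 1 of 3 probe sets, CD22 by 2 of 3, and PAX5 and BLK by 1 of 2. Proliferation markers were above in 15 of 15 cases, among them MKI67 (10.45 and 10.52), TOP2A (12.41 and 12.39) and PCNA (13.23 and 13.18).

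Markers of other cell types were above background in part. Those of T and NK cells were not (0 of 11, and 4 of 11 at a level set by the 75th percentile), with the T-cell receptor chains CD3D at 5.09 and 4.80, CD3E at 4.51 and 4.46 and CD3G at 4.56 and 4.43. Of the myeloid markers 1 of 9 was, the matrix proteoglycan VCAN (5.80 and 5.90, by 1 of 5 probe sets), but not CD14 (3.82 and 3.72), LYZ (3.72 on both arrays) or CSF1R (3.85 on both), and the count was 3 at the 75th and 0 at the 99th percentile. Fibroblast and epithelial markers were above in 3 of 10 cases (30.0%): the collagen COL1A1 (7.35 and 7.13, by 2 of 5 probe sets), E-cadherin CDH1 (7.04 and 6.98, by 1 of 2) and DCN (5.79 and 5.80, by 1 of 4). The collagens COL1A2 (4.98 and 5.09) and COL3A1 (3.75 and 3.99) were not above, and this count was 6 of 10 at the 75th and 0 of 10 at the 99th percentile. Whether other cell types have a part in the kinesin counts was not tested.

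Of the 81 tissue-restricted genes, 4 exceeded the level that they set: MBP, known from myelin (10.30 and 10.36), SFTPB, a surfactant protein gene (6.69 and 6.79), TNNT3, a muscle troponin gene (6.32 and 6.24), and HPX, a plasma protein gene (5.84 and 5.81). The liver genes ALB (3.98 and 3.87), APOA1 (3.69 and 3.70) and APOA2 (3.63 and 3.60) lay well under it.

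Of the 37 motor genes, 23 (62.2%) were above background, against 52.1% of all genes. The classes differed widely around that share. Above background were 12 of 13 mitotic kinesins (92.3%), 3 of 8 neuronal kinesins (37.5%), 7 of 9 general transport kinesins (77.8%) and 1 of 7 in the class of cilium and other kinesins (14.3%). The median log2 signal was 9.18 for the mitotic class, under the background level for the neuronal class (5.42) and 7.25 for the general transport class, and over all genes it was 6.11. These medians come from different probe sets, and the neuronal one lies where signals no longer follow transcript number, so no size is read from their differences. With 1 group of arrays there is no contrast between conditions, and genes are not replicates, so these figures describe the cell line and carry no p-value.

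**Figure D1:**
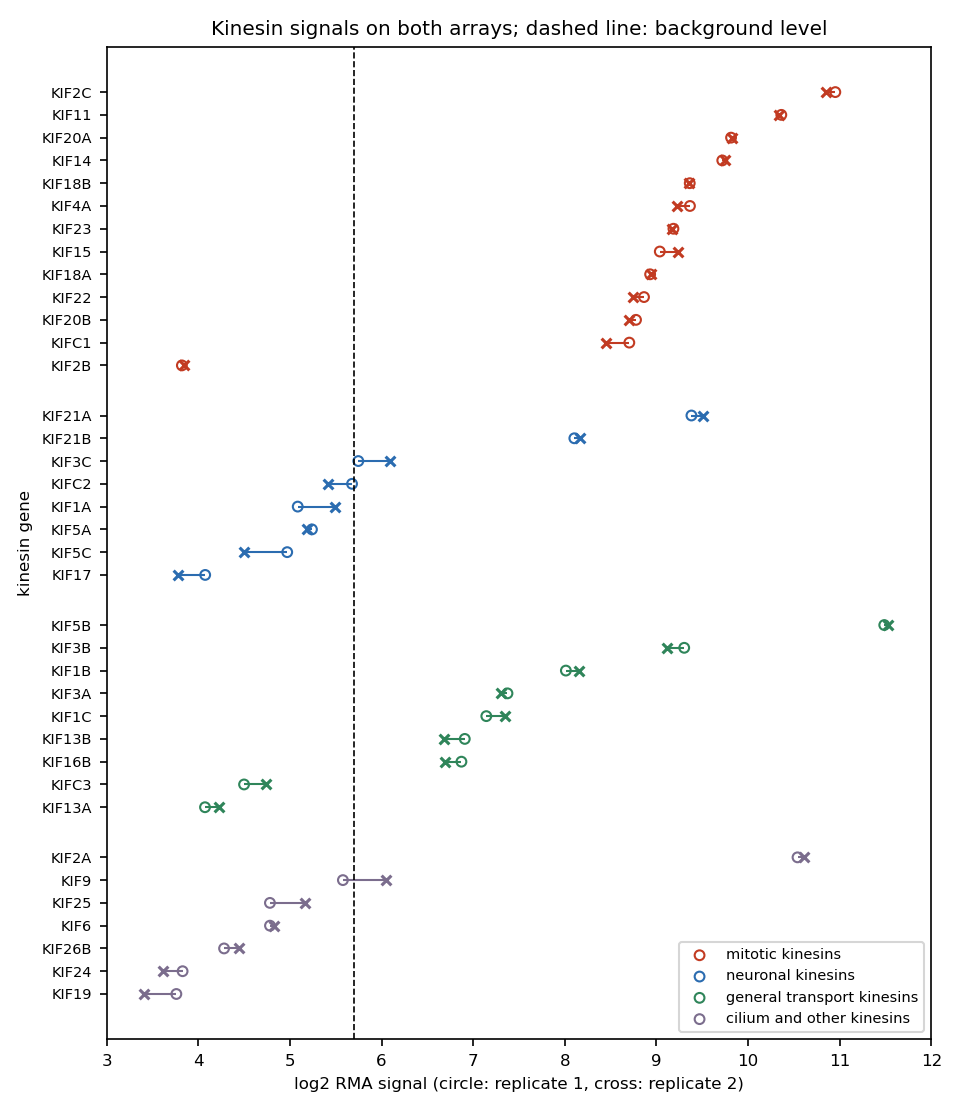
Log2 RMA signal (horizontal axis) of the 37 measured kinesin motor genes (vertical axis), by class, with a circle for replicate 1 and a cross for replicate 2; the dashed line is the mean background level of both arrays. The mitotic genes other than KIF2B lie together between 8.45 and 10.95, far to the right of the line, while the neuronal class is spread on both sides of it.

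The mitotic kinesins were nearly all above background, and with a wide margin. KIF11, the motor that pushes spindle poles apart, gave 10.36 and 10.33, and KIF15, which can take over part of that task, gave 9.04 and 9.23. KIFC1, a minus-end motor that focuses spindle poles, gave 8.70 and 8.45, the lowest signals among the 12 mitotic genes above background and still 3.00 and 2.77 above the level. The motors that act on chromosomes and on microtubule ends were all above background too.

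KIF2C, which takes microtubules apart at centromeres, had signals of 10.95 and 10.85. KIF18A, which damps the movements of chromosomes on the spindle, had 8.93 and 8.94, and its relative KIF18B had 9.36 on both arrays. KIF22, a motor that rides on chromosome arms, had 8.86 and 8.75. The chromosome-bound KIF4A, which also acts at the spindle midzone, had 9.37 and 9.22; KIF4B is a near-identical copy of this gene, and the KIF4A probe set may detect both.

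Motors of the last step, the division of the cytoplasm, were above background as well. KIF23, the motor subunit of the centralspindlin complex, gave 9.19 and 9.17, KIF20A gave 9.81 and 9.83, and KIF20B gave 8.78 and 8.70. KIF14, which works at the midbody, gave 9.72 and 9.74. Of these 4 genes KIF20B had the widest gap between the arrays, -0.07 (replicate 2 minus replicate 1).

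KIF2B was the exception in the mitotic class, at 3.82 and 3.84, well under the level by its 1 probe set. It belongs to the same subfamily, kinesin-13, as KIF2C and as KIF2A, a depolymerase of spindle poles that also acts in neurons. KIF2A was placed in the class of cilium and other kinesins, and counted with the mitotic kinesins instead it made their count 13 of 14. KIF2A gave 10.54 and 10.61, and its second probe set 8.60 and 8.45. Of the 4 measured kinesin-13 genes KIF2A and KIF2C were thus above background, and KIF2B and KIF24 were not.

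The genes of proteins that work with the mitotic motors were all above background at the main level. Of 19 such partners in division all 19 were, including TPX2, which targets spindle kinesins and activates Aurora A (11.20 and 11.18), AURKA, the Aurora A kinase itself (10.93 and 10.93), and AURKB, the kinase of the chromosomal passenger complex (10.18 and 10.17). The median of the 19 was 10.11, and the lowest signals were those of INCENP, 6.32 and 6.22. At the 99th percentile 18 of 19 were above the level, against 6719 of all 16692 genes. CENPE, the kinetochore motor whose symbol lies outside the KIF series, gave 9.54 and 9.71; it was singled out after its value was seen.

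The mitotic genes also shared letters in their promoters, a property the choice of members did not use. Many genes switched on late in the cell cycle carry a short element close to their transcription start, the cell cycle gene homology region (CHR) with the core TTTGAA, to which the DREAM and MuvB complexes bind, and near it CCAAT boxes bound by NF-Y. Both strings were searched on both strands from 250 bases before to 50 bases after the annotated starts in RefSeq (GRCh38.p14), together with the GC box GGGCGG, the TATA box TATAAA and the core of the RE1 element, to which the neuronal repressor REST binds (CAGCACC and GGACAG with any 2 bases between). No string of the 5 contains another. All 12 mitotic kinesins above background had a promoter in the table, and the upstream parts of 6 are printed here in the direction of transcription, from position -90 to -1 relative to the start, and for KIF20A from -110 to -21. Capitals mark TTTGAA or its reverse complement TTCAAA, and CCAAT or its reverse complement ATTGG.
KIF11, chr10:92593040-92593129, plus strand: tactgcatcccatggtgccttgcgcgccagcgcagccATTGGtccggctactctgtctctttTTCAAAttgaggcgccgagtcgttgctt
KIF4A, chrX:70290014-70290103, plus strand: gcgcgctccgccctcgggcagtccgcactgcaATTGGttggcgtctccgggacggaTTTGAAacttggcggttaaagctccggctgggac
KIF18A, chr11:28108157-28108246, minus strand: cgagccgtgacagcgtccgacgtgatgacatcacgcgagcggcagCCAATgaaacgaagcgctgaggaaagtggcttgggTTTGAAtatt
KIF23, chr15:69414259-69414348, plus strand: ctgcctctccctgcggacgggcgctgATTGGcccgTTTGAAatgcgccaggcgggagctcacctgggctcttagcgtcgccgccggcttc
KIF15, chr3:44761704-44761793, plus strand: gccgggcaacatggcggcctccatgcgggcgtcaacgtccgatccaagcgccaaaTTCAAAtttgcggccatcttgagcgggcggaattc
KIF20A, chr5:138179002-138179091, plus strand: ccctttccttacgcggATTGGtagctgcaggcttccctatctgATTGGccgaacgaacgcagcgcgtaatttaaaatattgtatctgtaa
In KIF11 and KIF4A the NF-Y box came first and the CHR core followed 25 and 24 bases further on, counted from first base to first base. KIF18A had the same order at 35 bases, counted in the same way, and in KIF23 the count was only 9. Among mitotic genes not printed, KIF14, KIF4B, KIF18B and KIFC1 had 23, 24, 34 and 50 bases. KIF20B had 122 and 128. KIF15 had a CHR core at -35 and no CCAAT box in the window, and KIF20A had a pair of CCAAT boxes and no TTTGAA.

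Over the whole class, 10 of 14 mitotic kinesins with a promoter (71.4%) held TTTGAA and 11 (78.6%) held CCAAT. Among all 27305 genes of the promoter table the shares were 18.2% and 39.7%, and among measured genes above background 14.2% and 44.7%. Every TTTGAA of the mitotic class began between -55 and 31. Within the range from -60 to 40, chosen after the positions were seen, 10 of 14 mitotic kinesins (71.4%) held it, against 6.04% of all genes. With a CCAAT box anywhere in the window besides, the count was 9 of 14 (64.3%), against 2.43% of all genes. Neither trait was particular to the mitotic kinesins. Of the division partners with a promoter, 11 of 15 (73.3%) held TTTGAA in that range, and 8 of 15 (53.3%) held a CCAAT box besides. For 13 proliferation markers these shares were lower, 30.8% and 23.1%. That range encloses every mitotic match, so the narrowing could lower only the shares of other genes. No size is therefore read from the contrasts with 6.04% and 2.43%. The shares over the whole window, 71.4% against 18.2%, do not depend on that choice. The 14 include KIF4B, not measured, and KIF2B, whose window held neither string.

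Of the genes above background without a TTTGAA, KIF20A and KIF22 held a CCAAT box and KIF2C held neither. In KIF14, KIF18B, KIF20B and KIFC1 the core lay just downstream of the start, between positions 2 and 31. The division partners had similar shares: 12 of 15 with a promoter (80.0%) held TTTGAA and 11 (73.3%) held CCAAT. The shares for proliferation markers were 46.2% and 76.9% of 13 genes. A match of this kind is a run of letters and not a measured site.

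Among the neuronal and general transport kinesins, 12 had a promoter in the table, and 1 of them (8.33%) held TTTGAA, against 18.2% of all genes and 14.2% of genes above background. CCAAT stood in 4 (33.3%), against 39.7% and 44.7%, so neither share was far from that of genes in general. GGGCGG stood in all 12, and also in 85.7% of the mitotic class, 77.6% of genes above background and 48.3% of all genes. The exception with TTTGAA is KIF5B, printed from -150 to -41, where the string begins at -140 and thus outside the range that the mitotic genes occupy. KIF21A and KIF3C, both above background, are printed from -90 to -1 for comparison and hold neither string there.
KIF5B, chr10:32056466-32056575, minus strand: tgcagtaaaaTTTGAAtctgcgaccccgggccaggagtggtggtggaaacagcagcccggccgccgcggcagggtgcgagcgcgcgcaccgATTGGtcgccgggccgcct
KIF21A, chr12:39443121-39443210, minus strand: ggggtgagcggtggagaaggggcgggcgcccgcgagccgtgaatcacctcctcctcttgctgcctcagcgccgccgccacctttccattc
KIF3C, chr2:25982498-25982587, minus strand: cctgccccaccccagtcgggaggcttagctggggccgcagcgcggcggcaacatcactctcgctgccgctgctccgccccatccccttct
TATAAA stood in none of the 12 promoters of neuronal and general transport kinesins and in 2 of 14 mitotic ones, against 3819 of the 27305 genes in the table. The REST core stood in no kinesin promoter, and in 0.0586% of all genes. A string so rare would be missing from so few promoters in any case, and only 5 of 8 neuronal kinesins had a promoter. Its absence is therefore uninformative.

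**Figure D2:**
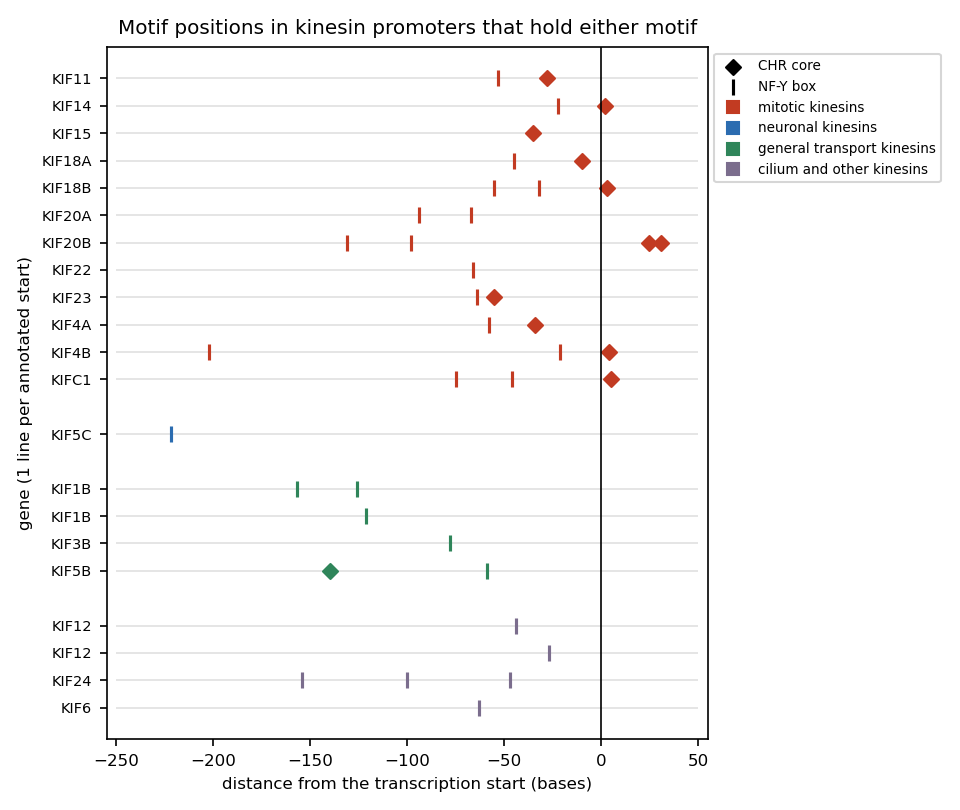
Positions of the CHR core (diamonds) and of the NF-Y box (ticks) relative to the transcription start, in bases, for each annotated start of a listed kinesin gene that holds either. The diamonds of the mitotic class crowd between -55 and 31, and the only other diamond, of KIF5B, stands at -140.

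Among the neuronal kinesins the best-known axonal motors and the dendritic motor KIF17 were not above background. KIF1A, which carries synaptic vesicle precursors, gave 5.08 and 5.50 by its brightest probe set and 3.92 and 3.71, and 3.67 and 3.56, by the others. KIF5A gave 5.24 and 5.19, and KIF5C gave 4.97 and 4.50; both are neuronal heavy chains of kinesin-1, the conventional kinesin. KIF17, which transports receptors in dendrites, gave 4.07 and 3.78. None of these 4 exceeded the level on either array, and none did so by any of their 9 probe sets.

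The class nonetheless held 3 genes above background. KIF21A, a kinesin-4 motor that restrains microtubule growth, was at 9.38 and 9.51. Its relative KIF21B, which is known from brain and lymphoid cells, was at 8.10 and 8.16. KIF3C, a neuron-enriched kinesin-2 chain, was at 5.75 and 6.09, only 0.04 above the level in replicate 1, and its other probe set was also above on both arrays (5.79 and 5.94). KIFC2, a minus-end motor described in mouse neurons, stood just under the level, at 5.68 and 5.41. At the 75th percentile, KIF1A, KIF5A and KIFC2 were also above it and the count was 6 of 8, against 10428 of all 16692 genes. With KIF21A, KIF21B and KIF3C counted as general transport motors the neuronal count was 0 of 5.

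Markers of neurons were above background in 3 of 19 cases (15.8%). SNAP25 (4.91 and 4.78), SYT1 (4.86 and 4.59) and SYN1 (5.53 and 5.23), which serve synaptic vesicle release, were not. The markers above background were UCHL1, a ubiquitin hydrolase (10.22 and 10.36, by 1 of 2 probe sets), INA, an intermediate filament gene (6.53 and 6.70), and GAD1, an enzyme of GABA synthesis (5.87 and 5.86, by 1 of 3). Whether neuron-like expression has a part in the neuronal kinesin count was not tested.

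The general transport kinesins were above background in 7 of 9 cases. KIF5B, the heavy chain of kinesin-1 found in most cells, gave 11.49 and 11.52, 10.07 and 10.13, and 8.28 and 8.34 by its 3 probe sets. All 3 were above background, while none of the 5 probe sets of its neuronal counterparts KIF5A and KIF5C was. A weaker contrast held in kinesin-2, whose chains KIF3A (7.37 and 7.30) and KIF3B (9.30 and 9.12) pair to carry cargo in the cytoplasm and into cilia. Both were above background, KIF3C barely so and KIF17 not. At the 99th percentile KIF3B stayed above the level, and KIF3A and KIF3C did not.

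In kinesin-3, whose members carry vesicles, KIF1B had all 3 probe sets above background, the brightest at 8.01 and 8.16. KIF1C gave 7.14 and 7.35 by one probe set and 4.33 and 4.39, under the level, by the other. KIF13B gave 6.91 and 6.68, and KIF16B, a motor of early endosomes, gave 6.87 and 6.69. KIF13A (4.07 and 4.22) was not above background, and nor was KIFC3 (4.50 and 4.74), a minus-end motor known from epithelial cells. At the 99th percentile of the tissue-restricted genes 3 of 9 general transport kinesins were left above the level, KIF5B, KIF3B and KIF1B. The mitotic count was 12 of 13 at that level as well, and 6719 of all 16692 genes were above it.

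The partners of these transport motors were largely above background. Of 18 measured kinesin-1 and kinesin-2 subunits and cargo adaptors 16 were (88.9%). The kinesin light chains KLC1 (9.22 and 9.27), KLC2 (7.24 and 7.39) and KLC3 (6.79 and 7.15, by 1 of 2 probe sets) were among them. The exceptions were the scaffold gene MAPK8IP1 (3.81 and 3.74) and DISC1 (5.22 and 5.26). KIFAP3, the subunit that joins the KIF3 chains to cargo, gave 10.33 and 10.26, and KIFBP, which binds and blocks kinesin motors, gave 9.27 and 9.32; both are named because their symbols begin with KIF without meeting the rule for members. At the 99th percentile this list kept 9 of 18, against 6719 of all 16692 genes.

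Dynein, which walks the opposite way, and its cofactor dynactin were above background in 18 of 19 cases. Among them were DYNC1H1, the heavy chain of cytoplasmic dynein (9.65 and 9.39, by 1 of 2 probe sets), and DYNC1I2 (11.78 on both arrays). The exception was DYNC1I1 (4.33 and 4.37), the intermediate chain typical of neurons. Tubulins, the track itself, were above in 13 of 16 cases, with TUBA1A at 11.10 and 11.05, TUBA1B at 14.40 on both arrays and TUBA1C at 13.81 and 13.78; these genes are near-identical copies and their single values are uncertain. TUBA8 (4.31 and 4.26), TUBB1 (4.26 and 4.20) and TUBB4A (4.62 and 4.34) were not above background. TUBB3, a tubulin best known from neurons, was above it at 11.03 and 11.02, by 2 of 2 probe sets.

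In the class of cilium and other kinesins, KIF2A alone was above background on both arrays. KIF9, a motor of the motile cilium, was at 5.58 and 6.04 and so exceeded the level in replicate 2 only, as 1.5% of all genes did on a single array. KIF6 (4.78 and 4.83), known from motile cilia, and KIF19 (3.76 and 3.41), which sets the length of such cilia in mice, were not above it. KIF24, a regulator of centrioles, gave 3.83 and 3.61, KIF25 gave 4.78 and 5.16, and KIF26B, an atypical kinesin of developmental signalling, gave 4.28 and 4.45. The class count was 4 of 7 at the 75th percentile, which added KIF6, KIF9 and KIF25, against 10428 of all 16692 genes. It was 2 of 7, with KIF9, when 1 array sufficed and when replicate 1 was left out.

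Markers of motile cilia were above background in 0 of 9 cases, among them FOXJ1, the master regulator of ciliated cells (4.19 and 4.29), and the axonemal dynein genes DNAI1 (3.90 and 4.20) and DNAI2 (4.22 and 4.14). Genes of intraflagellar transport, the cargo traffic that kinesin-2 drives in cilia, were above in 19 of 21 cases. IFT88 (7.12 and 6.81), IFT20 (9.73 and 9.72) and IFT22 (8.48 and 8.57, by 1 of 2 probe sets) were among them. IFT70A (4.23 and 4.15) and IFT140 (3.50 and 3.67) were not. The intraflagellar transport count was 8 of 21 at the 99th percentile, against 6719 of all 16692 genes. Of 9 Hedgehog pathway genes, whose signal runs through the cilium, 1 was above background, the receptor PTCH1 (8.55 and 8.40, by 1 of 4 probe sets), whereas the ligands SHH (3.90 and 3.83), IHH (4.53 and 4.52) and DHH (3.41 and 3.67) were not.

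**Figure D3:**
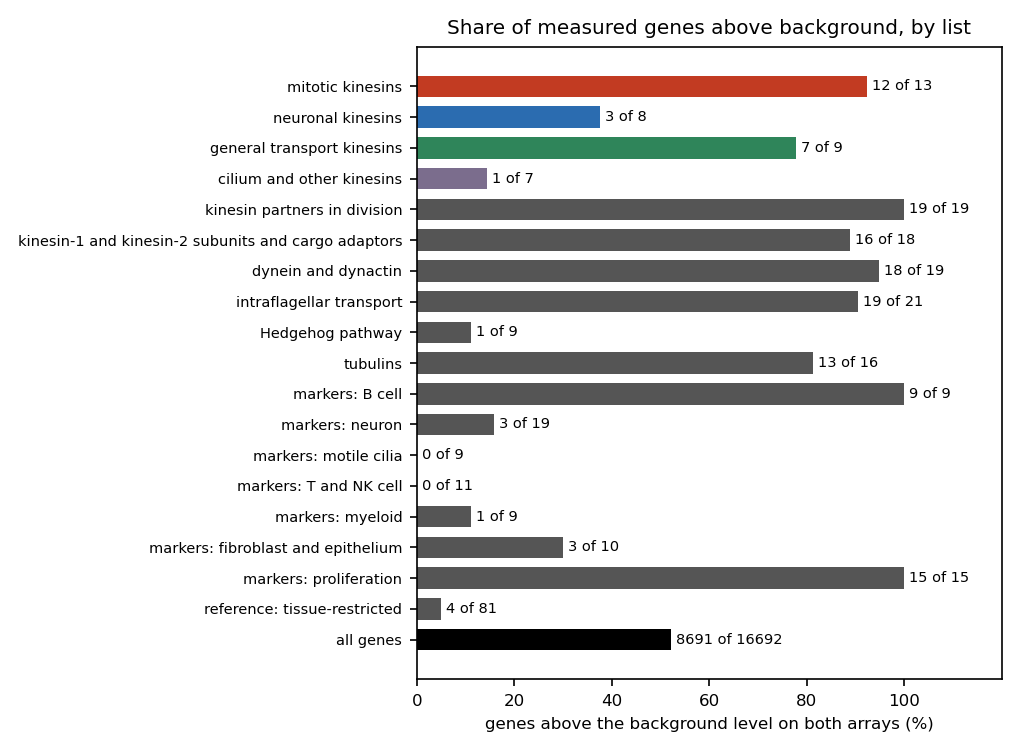
Share of measured genes above the background level on both arrays, in percent, for the kinesin classes (coloured bars), the lists of companion and marker genes (grey bars) and all genes (black bar), with counts beside the bars. The bars of mitotic kinesins (12 of 13), division partners (19 of 19), proliferation markers (15 of 15) and intraflagellar transport genes (19 of 21) are long. Those of the cilium and other kinesins (1 of 7) and of motile cilia markers (0 of 9) are short or empty.

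By subfamily, every measured gene of kinesin-4 (KIF4A, KIF21A and KIF21B), of kinesin-5 (KIF11), of kinesin-6 (KIF20A, KIF20B and KIF23), of kinesin-10 (KIF22) and of kinesin-12 (KIF15) was above background. In kinesin-8 the mitotic KIF18A and KIF18B were and the ciliary KIF19 was not. In kinesin-14, the subfamily of minus-end motors, KIFC1 was above and KIFC2, KIFC3 and KIF25 were not. Kinesin-9 had neither of its members, KIF6 and KIF9, above the level on both arrays. A single subfamily thus often held genes on both sides of the level, as in kinesin-1, kinesin-2, kinesin-3 and kinesin-13.

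Probe sets of a kinesin gene mostly gave the same call. Among the 17 motor genes with at least 2 probe sets, 7 had all of them above background, 9 had none and 1, KIF1C, had some (5.88%), against 32.3% of all genes with at least 2. Of the 60 motor probe sets 32 (53.3%) were above the level, against 47.5% of all named probe sets. Signals still differed between probe sets of a gene, as those of KIF5B given above show. The antisense probe sets were not above background (0 of 4), with KIF9-AS1 at 5.01 and 4.65 and KIF25-AS1 at 4.34 and 4.44 by its brightest.

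**Figure D4:**
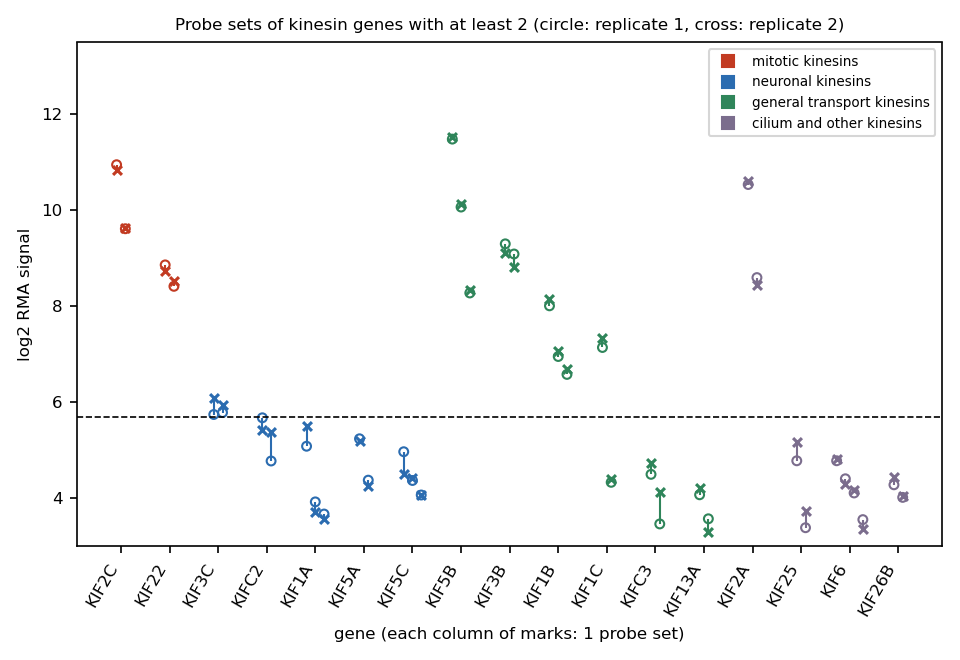
Log2 RMA signal (vertical axis) of each probe set of the 17 kinesin motor genes with at least 2, with a circle for replicate 1 and a cross for replicate 2; the dashed line is the mean background level. Only KIF1C has probe sets on both sides of the line, and the 3 probe sets of KIF5B are all above it.

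The arrays differed little over the family. Among motor genes above background the SD between the arrays had a median of 0.07, against 0.05 over all genes above background, and in the mitotic class it was 0.04. The differences (replicate 2 minus replicate 1) ran from -0.47 for KIF5C to 0.47 for KIF9, both with at least 1 signal under the level, and 19 of 37 were above 0. Among the 24 motor genes above the level on either array none had a gap over 0.5, against 1.42% of such genes overall. Of those above on both arrays, KIF3C had the widest gap (0.34), and in the mitotic class KIFC1 (-0.25) and KIF15 (0.20) did.

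**Figure D5:**
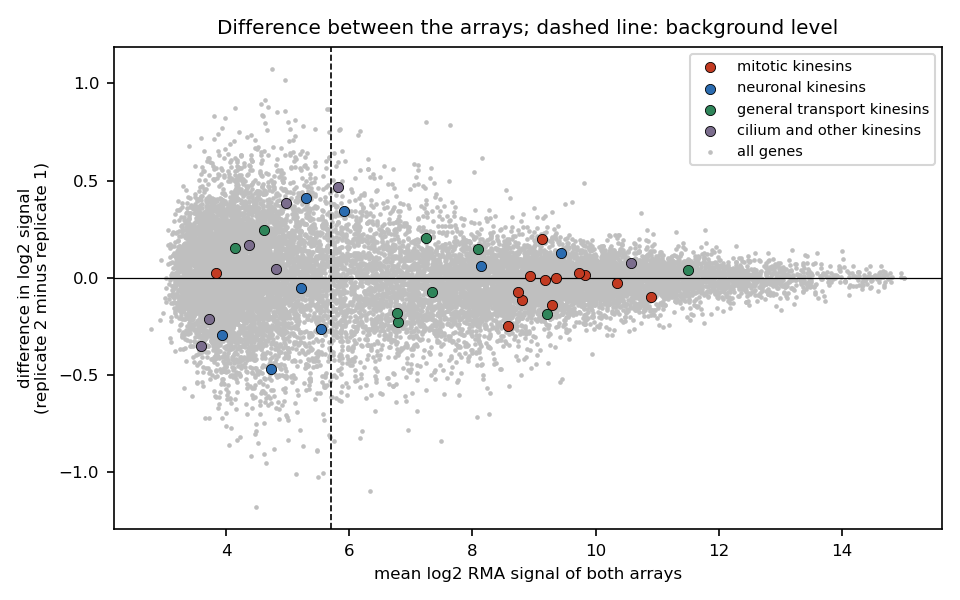
Difference in log2 RMA signal between the arrays (replicate 2 minus replicate 1, vertical axis) against the mean log2 signal (horizontal axis) for all 16692 genes (grey) and the 37 kinesin motor genes (coloured by class); the dashed line is the mean background level. The mitotic genes keep within -0.25 and 0.20 of zero difference, and the wider gaps belong to genes near or under the level.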

How the data were processed

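Probe set intensities were deposited by the authors for 36289 probe sets on 2 arrays; they were made with RMA, per the submitters' processing notes (version not given in the sources used here), and lie on a linear scale (6.29 to 33093), so their log2 was taken. RMA equalises the distributions of the arrays, so a change in total messenger RNA could not be seen, and it gives no detection call. The number of arrays limits the precision. Further probe sets of the design were not analysed here. Of the probe sets 29493 had 1 symbol, 1407 several and 5389 none; 29461 were matched by Entrez ID to RefSeq symbols (GRCh38.p14) and named genes. No probe set with several symbols named a kinesin. For each gene the probe set of highest mean log2 value stands. The calculations, tested on simulated data, used Python 3.11.15 and pandas 2.3.3. No test between groups was possible with 1 group.

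Every kinesin gene was named, and of each companion list the first 3 measured members and up to 5 on the minority side of the level; other names were added after values were seen. Members, classes, lists and the tissue-restricted genes were chosen with earlier results of these data known. Alternatives were the 75th and 99th percentile, tissue-restricted genes without those of glia and eye, 1 array instead of both, the mean of a gene's probe sets, no _x_at or _s_at probe sets, a second quantile normalization, a pseudocount of 16 and each array alone.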

Additional observations from a re-analysis of the deposited data

How the results depend on the processing

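Over the 10 settings tried, 26 of the 37 motor genes kept their call in each setting that measured them, 18 above background and 8 not. The calls that changed were gains of KIF1A, KIF5A, KIF6, KIF9, KIF25 and KIFC2 and losses of KIF3A, KIF3C, KIF1C, KIF13B and KIF16B; the other settings than the 75th and 99th percentile gained KIF9 or changed none. The neuronal count was 6 of 8 at the 75th percentile and 0 of 5 with KIF21A, KIF21B and KIF3C counted as general transport motors. The general transport count was 3 of 9 at the 99th percentile. Of all 16692 genes 10428 were above the level at the 75th and 6719 at the 99th percentile. The cilium and other count was 4 at the 75th percentile, 2 with 1 array sufficing, 2 with the mean of a gene's probe sets, 2 without _x_at and _s_at probe sets, and 1 to 2 with either array alone. Without _x_at and _s_at probe sets fewer genes were measured, and the mitotic count was 7 of 8 and the companion lists together 66 of 126, against 117 of 184. Differences of class medians compare different probe sets, and that against the neuronal class is set by a median near or under the level. The mitotic minus neuronal median was 4.14 with the mean of probe sets, 4.29 without _x_at and _s_at probe sets, 3.34 with log2(value + 16) and 3.73 to 3.77 with either array alone, against 3.76. The mitotic minus general transport median was 2.38, 2.48, 1.83 and 1.92 to 2.04 in the same settings, against 1.93. The causes were not tested. The small marker lists moved with the level: neuronal markers were 8 of 19 at the 75th and 1 of 19 at the 99th percentile. No paired analysis was possible because there is 1 group.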

Other observations

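Some kinesin genes begin back to back with a neighbour, with transcription starts on opposite strands at most 1000 bases apart in RefSeq (GRCh38.p14). This held for 5 of 14 mitotic kinesins (35.7%), for 3 of 8 cilium and other kinesins (37.5%) and for 1 of 12 neuronal and general transport kinesins (8.33%). It also held for 31.2% of measured genes above background, 14.8% of those not above and 20.1% of all genes in the promoter table. Of the 12 mitotic kinesins above background 4 had such a neighbour (33.3%), a share near that of genes above background. The remaining mitotic pair was KIF2B, not above background, and LOC124904030, not measured, 1 base apart. In the cilium and other class 1 of 7 measured genes was above background, and its share was over that of genes not above. KIF15 and KIAA1143 start 175 bases apart, and KIAA1143 was above background as KIF15 was (9.79 and 9.84). KIF4A and PDZD11 start 177 bases apart, with PDZD11 at 11.30 and 11.26, and KIF20A and BRD8 482 bases apart, with BRD8 at 10.06 and 9.96. KIF18A, above background, faces METTL15 at 232 bases, which was not (5.29 and 5.22).

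In the class of cilium and other kinesins, the kinesin of each such pair was not above background on both arrays. KIF24, under the level, starts 301 bases from NUDT2, which was above background (8.28 and 8.32), and KIF9, above the level on 1 array, starts 145 bases from KLHL18 (8.76 and 8.91). KIF25 starts 594 bases from its antisense gene KIF25-AS1, and both were under the level. These pairs were looked for after the promoter positions were at hand, and no test was run on them.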
